A study of Mus musculus with 6 samples.

Results

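The CCAAT/enhancer-binding protein (C/EBP) family was examined in sciatic nerves of mice at P4. Its members were the 6 genes *Cebpa*, *Cebpb*, *Cebpd*, *Cebpe*, *Cebpg* and *Cebpz*, taken by symbol from a table of 59485 genes, and each was found in 1 row. The data are RNA-seq of the poly-A fraction of whole nerves, with 1 library per animal, 3 from control and 3 from mutant animals. The labels name the control genotype wild-type, which the methods use for Cre-negative animals with 1 or 2 floxed *Adar1* alleles and the R26R reporter. The mutant genotype is given as Ht-PA-Cre with *Adar1* fl/fl and R26R. Ht-PA-Cre drives the recombinase from the promoter of human tissue plasminogen activator, which acts in neural crest (NC) cells. R26R marks the recombined cells with YFP, and any floxed allele and reporter carried by the controls stays unrecombined. The cells of the nerve that do not come from the NC keep both *Adar1* alleles, so each value is a sum over cells with and without the deletion.

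*Cebpa*, *Cebpb*, *Cebpd*, *Cebpe* and *Cebpg* encode transcription factors with a basic region that contacts DNA and a leucine zipper (bZIP) that pairs them with each other or with other bZIP proteins. C/EBPβ and C/EBPδ are known as rapid mediators of inflammatory and acute-phase transcription downstream of cytokines of the IL-6 family. C/EBPα acts in adipocyte, liver and granulocyte differentiation, and C/EBPε in late granulocytes. C/EBPγ lacks an activation domain and works through its partners, among them ATF4 in the response to amino acid shortage. The product of *Cebpz* bears the name for its link to CCAAT boxes but has no leucine zipper, and belongs to a family of nucleolar proteins that assemble ribosomes.

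The 5 bZIP members are set side by side in the coding sequence of the basic region. The stretch was chosen as the one where *Cebpa* best matched the other bZIP members, with *Cebpz* left out. The match counts below, and the lower one of *Cebpz*, therefore follow in part from this choice. The 30 bases of each that align there are given 5′ to 3′ on the coding strand, from GENCODE M21 on mm10, with capitals for the 21 bases that are identical in all 5 members:
Cebpa (chr7:35120289-35120318, plus strand): GAaCGcAACAAcATcGCgGTGcgcAAgAGC
Cebpb (chr2:167689709-167689738, plus strand): GAgCGcAACAAcATcGCgGTGcgcAAgAGC
Cebpd (chr16:15887919-15887948, plus strand): GAgCGcAACAAcATcGCtGTGcgcAAgAGC
Cebpe (chr14:54710722-54710751, minus strand): GAaCGtAACAAcATcGCgGTGcgcAAgAGC
Cebpg (chr7:35050600-35050629, minus strand): GAgCGgAACAAtATgGCgGTGaaaAAaAGC
*Cebpb* and *Cebpe* matched *Cebpa* at 29 of these 30 bases, *Cebpd* at 28 and *Cebpg* at 22. The best stretch of the *Cebpz* coding sequence matched at 16. The longest run of identical bases shared by transcripts of any pair of members was 29 bases, between *Cebpa* and *Cebpb*. Reads of 130 bases are longer than that, so no read can lie wholly inside a run that members share.

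Reads counted on genes ran from 50938349 to 78250094 per library, and the deposited values, called normalised read counts here, are these reads divided by a size factor per library. The targeted gene *Adar* had normalised read counts of 1602, 2066 and 1133 in the libraries labelled control and of 11768, 9311 and 9773 in those labelled mutant. All of the latter lay above all of the former, so the gene as a whole showed no loss of RNA. The table holds 1 value for the gene and cannot separate the deleted segment from the rest. For this reason the libraries are called control-labelled or mutant-labelled, control and mutant before a replicate number stand for these labels, and each direction rests on the labels. The 4 Schwann cell (SC) markers reported here were read in all libraries, and 2 of them were lower past the threshold given below, *S100b* (8195 ± 171 to 1036 ± 444) and *Erbb3* (10348 ± 1033 to 3589 ± 828). Of all genes tested, 13.9% were higher and 10.4% lower past that threshold. Skeletal muscle markers were higher, 5 of 6 past it. Their summed normalised read count was 20441, 3668 and 16548 in control-labelled libraries and 54784, 24056 and 185538 in mutant-labelled ones. Macrophage markers were mixed (1 higher and 3 lower of 7), 2 of 5 fibroblast markers were lower, and none of 6 endothelial, 6 tested neutrophil and 6 adipocyte markers passed the threshold by limma, though 2 endothelial markers had an unadjusted p under 0.05. Their part in the list counts was not tested.

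*Cebpb*, *Cebpd* and *Cebpg* rose 5.21-fold to 7.70-fold by the ratio of group means, and were the members past the threshold. *Cebpa* and *Cebpz* were higher by less than 2-fold, and *Cebpe* was at or near 0 in most libraries. The comparison asked how the mutant genotype changed transcript levels, and used log2(normalised read count + 1) with limma over 25802 genes. As in the methods of the study, the threshold was 2-fold or more in either direction, together with a p no higher than 0.05. The methods do not say whether that p was adjusted, and it was taken unadjusted here. Of the 6 members, 3 were past it, all higher, against 24.2% of all genes tested in either direction and 13.9% higher. The values of 5 members did not overlap between the groups, against 49.2% of all genes. With an adjusted p at or under 0.05 and no limit of size, 5 of the 6 members were higher, against 19% of all genes (35% in either direction). *Cebpa* left this count without the trend in eBayes (adjusted p = 0.0906) and without control replicate 2 (0.0884), control replicate 3 (0.0727) or mutant replicate 2. The median log2 fold change of all genes tested was 0.03, and a common total for all libraries moved it to 0.19, and the log2 fold changes with it. In a whole nerve, fewer cells of a type and less RNA per cell cannot be told apart.

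**Figure D1:**
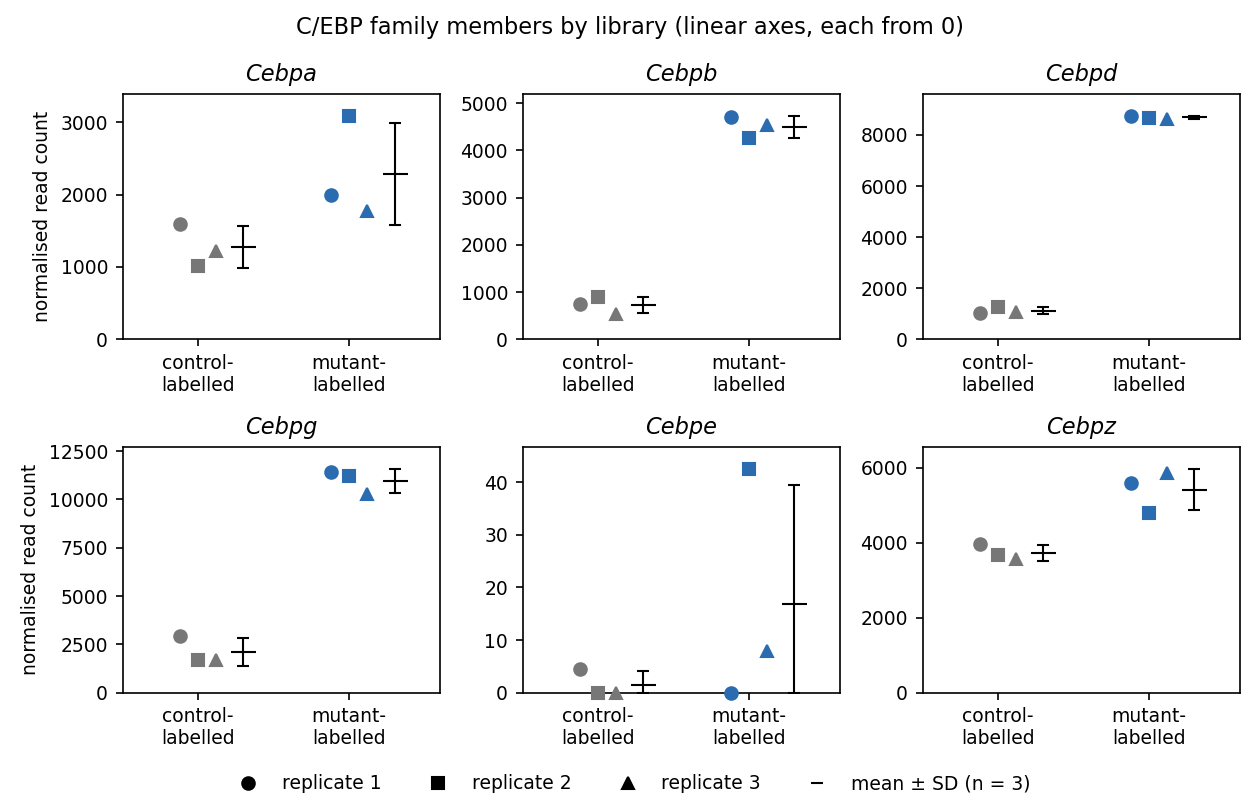
Normalised read count (y axis, linear and from 0 in each panel) of the 6 C/EBP members in the 3 control-labelled (grey) and 3 mutant-labelled (blue) libraries, with marker shapes for replicates and the mean ± SD beside them (lower bars of Cebpe stop at 0). The groups lie far apart for Cebpb, Cebpd and Cebpg, are separated by less for Cebpa and Cebpz, and overlap for Cebpe.

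*Cebpd* (GSMG0014713, mm10 chr16:15887006-15891031, plus strand) had the largest change of the members that passed. Its normalised read counts were 1044, 1276 and 1067 in control-labelled and 8748, 8671 and 8640 in mutant-labelled replicates 1 to 3. The 3 mutant-labelled values were nearly equal, and the lowest was several times the highest control-labelled value. The mean went from 1129 ± 128 to 8686 ± 56.0 (SD, n = 3 each), a ratio of 7.70. The log2 fold change was 2.95 (standard error, SE, of 0.11 and Benjamini-Hochberg adjusted p = 2.03e-06 from limma over all genes tested).

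*Cebpb* (GSMG0022198, mm10 chr2:167688915-167690432, plus strand) had normalised read counts of 755, 888 and 542 in control-labelled and 4714, 4255 and 4532 in mutant-labelled replicates 1 to 3. Control replicate 3 was the lowest library, and the gap between the groups was many times the SD of either. The mean went from 729 ± 174 to 4500 ± 231 (ratio 6.18), and the log2 fold change was 2.65 (SE 0.17, adjusted p = 2.15e-05). The table gives 1 value for the single transcript of *Cebpb*, from which activating and inhibitory protein forms are translated, so it says nothing of their balance.

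*Cebpg* (GSMG0035799, mm10 chr7:35046423-35056585, minus strand) had normalised read counts of 2943, 1668 and 1702 in control-labelled and 11404, 11209 and 10264 in mutant-labelled replicates 1 to 3. Control replicate 1 stood above the other control-labelled libraries and still lay far below every mutant-labelled library. The mean went from 2104 ± 726 to 10959 ± 610 (ratio 5.21), and the log2 fold change was 2.43 (SE 0.20, adjusted p = 6.88e-05). Without control replicate 1 the log2 fold change of *Cebpg* was 2.70.

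Without mutant replicate 3, which had the highest muscle sum, the log2 fold change was 2.95 for *Cebpd*, 2.65 for *Cebpb* and 2.48 for *Cebpg*. The muscle sums of the other mutant-labelled libraries also lay above those of all control-labelled libraries, and the part of muscle RNA in these values was not tested. Over all 6 fits that each left out a library, it ran from 2.90 to 3.04, from 2.46 to 2.81 and from 2.29 to 2.70.

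*Cebpa* (GSMG0034344, mm10 chr7:35118791-35121932, plus strand) had normalised read counts of 1592, 1017 and 1219 in control-labelled and 1992, 3086 and 1774 in mutant-labelled replicates 1 to 3. The groups did not overlap, but the gap between control replicate 1 and mutant replicate 3 was smaller than the SD of either group. The mean was 1276 ± 292 and 2284 ± 703, and the log2 fold change was 0.82 (SE 0.23, 95% interval 0.29 to 1.35, adjusted p = 0.0254), under the 2-fold limit. Without mutant replicate 2 the log2 fold change was 0.58 (adjusted p = 0.0635).

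Adipocytes use *Cebpa* as a lineage regulator, and within each group their markers were highest where it was highest. The summed normalised read count of the 6 adipocyte markers was 2682, 41.6 and 627 in control-labelled and 55.3, 9739 and 18.8 in mutant-labelled replicates 1 to 3. The highest sum in each group fell on the library with the highest *Cebpa* of that group, control replicate 1 and mutant replicate 2. Between the groups this did not hold, since mutant replicates 1 and 3 had more *Cebpa* than every control-labelled library but lower sums than control replicates 1 and 3. *Adipoq*, which encodes the adipocyte hormone adiponectin, was 1134, 7.56 and 362 in the control-labelled group (replicates 1 to 3) and 16.7, 4955 and 13.8 in the mutant-labelled group. *Plin1* and *Lep* were at 0 in control replicate 2 and mutant replicate 3. The part of adipocyte RNA in the values of *Cebpa* was not tested.

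**Figure D2:**
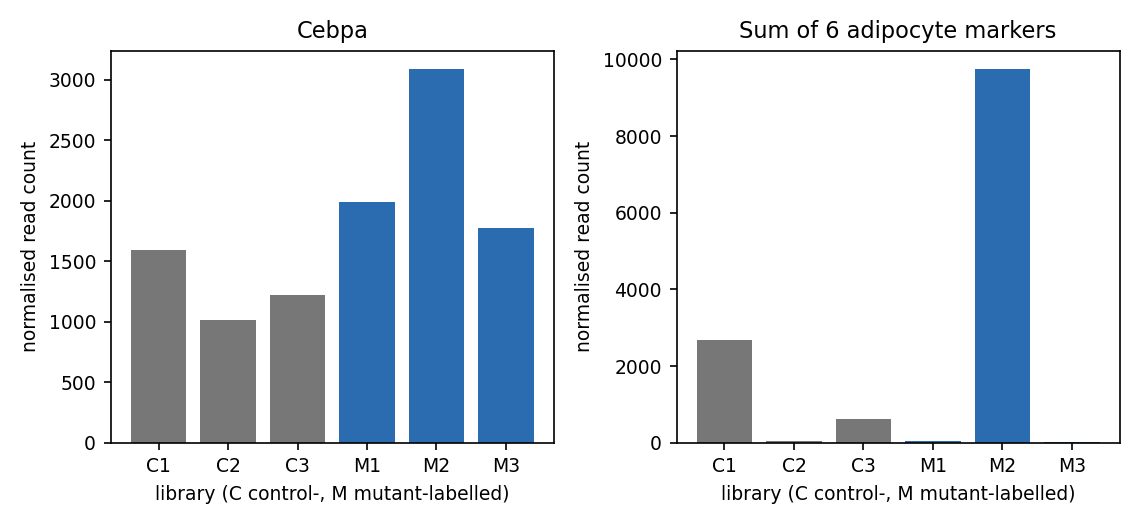
Normalised read count of Cebpa (left) and of the sum of 6 adipocyte markers (right) in each library, with control-labelled libraries in grey and mutant-labelled ones in blue and y axes from 0. The tallest bar of each group is replicate 1 (control) and replicate 2 (mutant) in both plots, while Cebpa is 1992 and 1774 in mutant replicates 1 and 3, where the markers sum to 55.3 and 18.8.

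*Cebpe* (GSMG0012402, mm10 chr14:54710361-54712175, minus strand) had 4, 0 and 0 reads in control-labelled and 0, 44 and 8 reads in mutant-labelled replicates 1 to 3. It entered the test only through the mean of the mutant-labelled libraries, which 1 library carried, and the groups overlapped. The log2 fold change was 2.05 with a 95% interval from -1.39 to 5.49 (adjusted p = 0.324). Without mutant replicate 1 it was 3.48 and past the threshold (adjusted p = 0.0721), and without mutant replicate 2 the gene fell under the filter on low values. With all libraries the difference in *Cebpe* was within the spread between them.

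*Cebpz* (GSMG0017874, mm10 chr17:78919004-78937070, minus strand) had normalised read counts of 3975, 3668 and 3553 in control-labelled and 5581, 4797 and 5856 in mutant-labelled replicates 1 to 3. The groups did not overlap and the control-labelled values were close together. The mean was 3732 ± 218 and 5412 ± 550 (ratio 1.45), and the log2 fold change was 0.53 (SE 0.11, adjusted p = 0.0054), under 2-fold here and in every alternative tried.

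**Figure D3:**
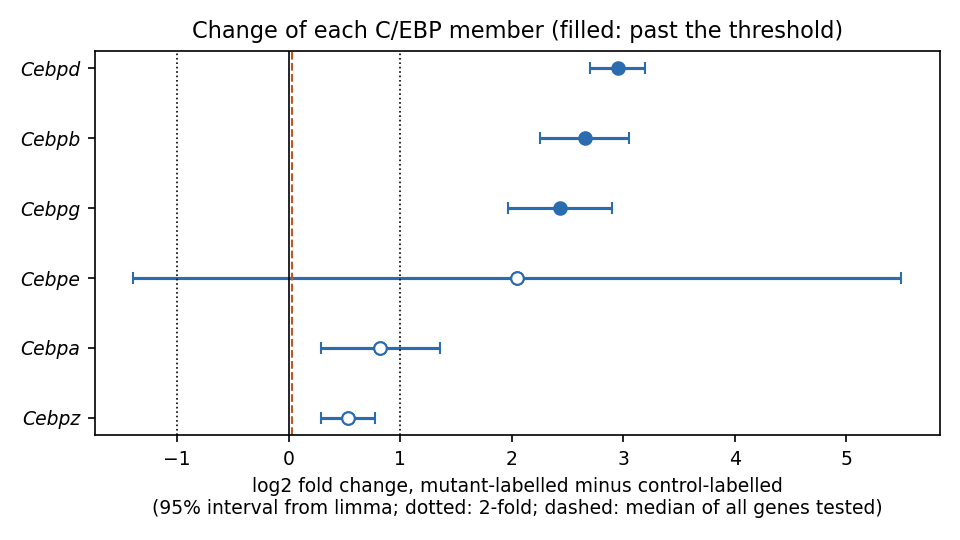
Log2 fold change (x axis, mutant-labelled minus control-labelled) of each member with its 95% interval from limma, filled where past the threshold, with dotted lines at a 2-fold change and a dashed line at the median of all genes tested (0.03). The intervals of Cebpd, Cebpb and Cebpg lie wholly beyond 2-fold, that of Cebpz wholly below it, and that of Cebpe spans 0.

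Differences between members were compared with an exact two-sided permutation test of the log2 difference of both genes in each library. The 15 pairs were tested, and with 3 libraries against 3 the smallest possible p is 0.1, so no pair could pass 0.05. The change of *Cebpa* minus that of *Cebpb*, *Cebpd* and *Cebpg* was -1.83, -2.13 and -1.61 on the log2 scale, and the changes of these 3 minus that of *Cebpz* were 2.12, 2.42 and 1.90. The library values did not overlap between the groups in these 6 pairs (p = 0.1 and adjusted p = 0.214 in each, exact permutation test). The change of *Cebpd* minus that of *Cebpg* was 0.52, with group values that were apart by less than the SD of the control-labelled libraries (-0.39 at the highest control-labelled library and -0.38 at the lowest mutant-labelled library; p = 0.1 and adjusted p = 0.214, exact permutation test). *Cebpb* differed from *Cebpd* by -0.30 (p = 0.3, exact) and from *Cebpg* by 0.22 (p = 0.6, exact), and *Cebpa* from *Cebpz* by 0.29 (p = 0.6, exact), all with overlapping values. Pairs with *Cebpe* all overlapped.

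Levels of different genes were set side by side per kb of merged exon (GENCODE M21), since longer transcripts collect more reads. The lengths of the constitutive regions that the authors counted are not known, so this scale is approximate. In control-labelled libraries *Cebpz* was the highest, at 801 ± 46.9 normalised read counts per kb. *Cebpb* (484 ± 116), *Cebpa* (484 ± 111), *Cebpg* (374 ± 129) and *Cebpd* (301 ± 34.1) followed, each overlapping the next, and *Cebpe* was last at 1.19 ± 2.07. In mutant-labelled libraries the order was *Cebpb* (2992 ± 154), *Cebpd* (2319 ± 14.9), *Cebpg* (1950 ± 109), *Cebpz* (1162 ± 118), *Cebpa* (867 ± 267) and *Cebpe* (13.5 ± 18.2). Only *Cebpz* and *Cebpa* overlapped among these neighbours.

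The summed level of the 5 bZIP members was 1645 ± 252 normalised read counts per kb in control-labelled libraries and 8141 ± 277 in mutant-labelled ones. The share of *Cebpa* in this sum was 29.4 ± 4.8% in control-labelled libraries and 10.6 ± 3.0% in the mutant-labelled group, and the groups did not overlap (23.9% at the lowest control-labelled library and 14.0% at the highest mutant-labelled library). *Cebpd* held 18.6 ± 3.5% and 28.5 ± 0.88%, also without overlap. *Cebpb* held 29.5 ± 6.2% and 36.8 ± 2.5%, and *Cebpg* 22.4 ± 4.6% and 23.9 ± 0.62%, both overlapping. The level of *Cebpb* was 0.831, 1.53 and 0.78 times that of *Cebpa* in control-labelled replicates 1 to 3 and 4.15, 2.42 and 4.48 times in mutant-labelled ones.

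**Figure D4:**
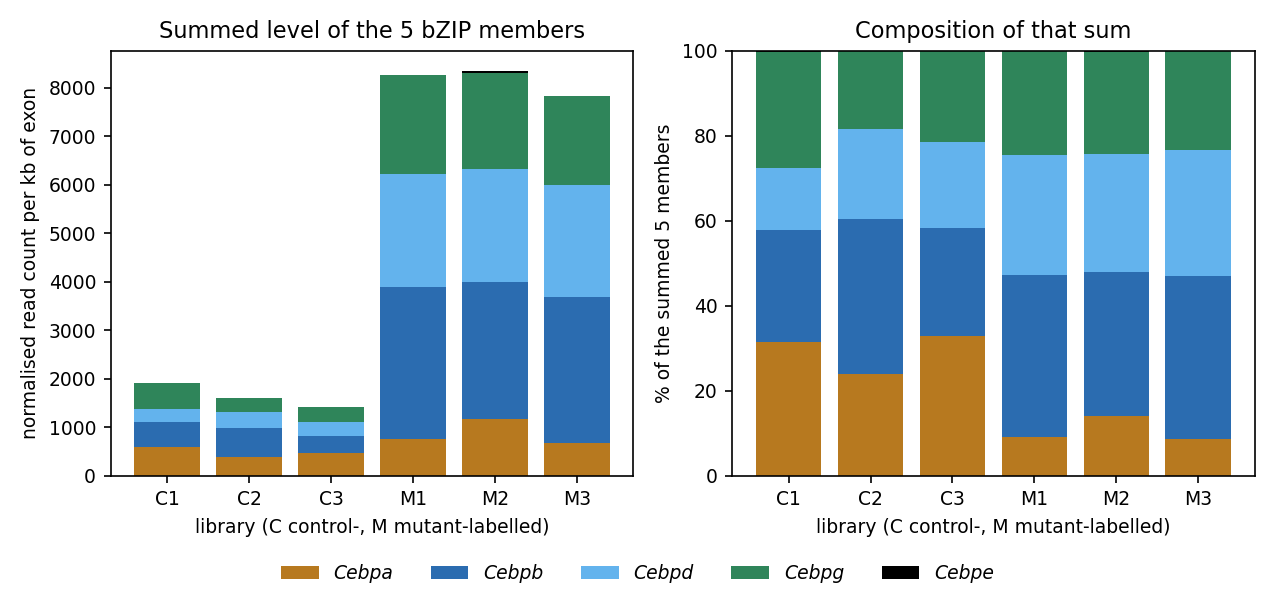
Normalised read count per kb of exon of the 5 bZIP members stacked by library (left) and the same as a percentage of their sum (right), for control-labelled (C1 to C3) and mutant-labelled (M1 to M3) libraries. The sum is 1411 to 1912 for C1 to C3 and 7825 to 8343 for M1 to M3, where the share of Cebpa is 8.60 to 14.0% against 23.9 to 32.8%.

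Likeness to each risen member was measured by the root mean square difference of the log2 profiles over the 6 libraries, each centred on its mean. Only tested genes with a symbol were ranked, and the nearest are given. For *Cebpb* these were *Hpse* (0.08), *Adar* (0.09) and *Slfn9* (0.10). *Stx11* (0.09), *Pcsk1* (0.11) and *Apobec3* (0.11) were nearest to *Cebpd*, and *Pcsk1* was low in the control-labelled libraries (8.88, 11.3 and 10.1). The nearest to *Cebpg* were *Hes1* (0.10), *Birc3* (0.13) and *F2rl1* (0.14). *Hes1* had 1340 in control replicate 1, against 719 and 678 in the other control-labelled libraries. This likeness to *Cebpg* follows from how the gene was picked.

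Several members lie close to or across other genes, and the sources do not say whether the counting used the strand. *Tmem189* on the minus strand covers the first part of *Cebpb*, and its normalised read count was 8138 ± 734 in the control-labelled group and 1902 ± 746 in the mutant-labelled group, opposite to *Cebpb*. *Spidr* on the minus strand overlaps *Cebpd*, with 1005 ± 63.3 and 1832 ± 115. A locus without a symbol (GSMG0034343) covers *Cebpg* on the plus strand and had 381 ± 109 and 261 ± 58.0, far fewer than *Cebpg*. *Cebpzos* overlaps one end of *Cebpz* on the plus strand and had 827 ± 134 and 802 ± 94.4 (log2 fold change -0.04, adjusted p = 0.885). *Cebpa* and *Cebpg* are neighbours on chromosome 7, yet their log2 fold changes were 0.82 and 2.43.

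Promoter windows from RefSeq (GRCm38.p6, 250 bases before to 50 after the start) were found for *Cebpa*, *Cebpb* and *Cebpg*. They were searched on both strands for CCAAT (in 37.4% of all 32851 windows), TATAAA (13.6%), TGACG, the core of the cAMP response element (20.8%), and the C/EBP site TTGCNNAA (10.8%). The STAT site TTCNNNGAA (8.3%), the amino acid response element TGATGNAA (3.97%), the interferon response element (3.44%) and the NF-kB site (1.47%) were searched too. The matches that lie before the start in 30-base stretches are shown on the strand of the gene, 1 or 2 per member, with the motif (for *Cebpg* the reverse complement of CCAAT) in capitals:
Cebpa, 30 bases before the start (chr7:35119251-35119280): tgcccgaccctcTATAAAagcggtccccgc
Cebpb, 53 bases before the start (chr2:167688849-167688878): cgtggccgggcaaTGACGcgcaccgaccgg
Cebpg, 89 bases before the start (chr7:35056639-35056668): cacacggcctgtgATTGGctggtggagctg
Cebpg, 28 bases before the start (chr7:35056577-35056606): agcagcgcttctATTGGtcacggcggcggc
*Cebpb* held further TGACG matches 180 and 7 bases before the start and TATAAA from base 22 of the transcript. No match overlapped another, and the other motifs had none in these 3 windows. A match is a run of letters and does not show binding. The starts are those of RefSeq. The counted locus of *Cebpa* begins earlier, at chr7:35118791, so its stretch lies inside that locus. The counted locus of *Cebpg* (minus strand) reaches chr7:35056585, within its stretch nearest the start. The windows were 67.3% (*Cebpa*), 80.7% (*Cebpb*) and 71.7% (*Cebpg*) GC.

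The members and the gene lists were chosen with earlier results of these data known. The shares of all genes beside their counts are therefore a background and no test of them. The bZIP proteins that pair with C/EBP members were examined as a list of 9 genes. Of these, 6 were higher past the threshold and none lower, against 13.9% higher and 10.4% lower of all genes, with a median log2 fold change of 2.14. *Ddit3*, which encodes the stress-induced C/EBP relative CHOP, had normalised read counts of 113, 136 and 133 in control-labelled libraries and 1508, 1426 and 1906 in mutant-labelled ones. Its groups lay far apart, with a log2 fold change of 3.64 (adjusted p = 5.47e-06). *Atf3* and *Atf5*, both stress-responsive, rose by 3.01 and 2.25 on the log2 scale, and *Fos*, an AP-1 subunit, by 2.14. *Atf2* was 1082 ± 56.0 and 1075 ± 126 (log2 fold change -0.01, adjusted p = 0.948).

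Ligands known to induce *Cebpb* and *Cebpd* were higher past the threshold in 7 of 9 cases and lower in none, against 13.9% and 10.4% of all genes. However, 3 of the 7 (*Il6*, *Il1b* and *Ifng*) entered the test only through the mutant-labelled group, where they are high, and the count was 5 with a mean of at least 50, with edgeR, DESeq2 or TMM on 5 libraries, and without mutant replicate 2 or 3. *Ifng* was at 0 in every control-labelled library and at least 4.82-fold higher in the mutant-labelled group (floor of 3 reads per library). *Il6* had 9.99, 0 and 0 in control-labelled libraries, against 508, 479 and 412 in the others, a rise by 7.71 on the log2 scale (adjusted p = 0.000381). With so few control reads the size depends on the pseudocount, and was 9.96 with 0.1 and 5.24 with 10. *Lif*, a cytokine of the same family, went from 358 ± 74.6 to 8703 ± 985 (4.61, adjusted p = 2.26e-06), *Il11* rose by 3.61 and *Tnf* by 1.87. Of the 12 receptors and transducers, 7 were higher and none lower (13.9% and 10.4% of all genes), with a median of 1.07. *Osmr*, the oncostatin M receptor, rose by 3.42, *Socs3*, the feedback inhibitor of IL-6 signalling, by 2.95, *Stat3*, which transmits IL-6 family signals, by 1.36, and *Tnfrsf1a*, a TNF receptor, went from 2895 ± 318 to 8171 ± 847. *Lifr* was 6696 ± 913 and 4609 ± 723 (-0.54, adjusted p = 0.0196), within 2-fold.

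Target genes were counted in lists by the setting in which C/EBP proteins are known to act on them. In the inflammatory and acute-phase list, 12 of the 18 genes tested were higher and 1 lower, against 13.9% and 10.4% of all genes, and *Orm2* and *Csf3* were too low to test. Of these 12, 4 (*Il6*, *Il1b*, *Saa3* and *Cxcl2*) entered the test only through the mutant-labelled group, and *Il6* and *Il1b* also stand in the list of ligands. *Lcn2* and *Hp*, also among the 12, were by far highest in mutant replicate 2. They had 64.7, 820 and 87.0 (*Lcn2*) and 220, 2780 and 310 (*Hp*) in mutant-labelled replicates 1 to 3. *Ccl2*, a monocyte chemokine, had 530, 643 and 560 in control-labelled libraries and 22367, 18702 and 26653 in mutant-labelled ones (log2 fold change 5.28, adjusted p = 8.4e-07). *Cxcl1*, a neutrophil chemokine, rose by 4.29 and *Ptx3*, a soluble pattern receptor, by 3.59. *Cd14*, a monocyte co-receptor named after its values were seen, was the gene that fell (209 ± 49.4 to 67.2 ± 9.67). *Orm1* spanned 0 to 91.7 in mutant-labelled libraries, with a log2 fold change of -2.07 (adjusted p = 0.376), and was the second gene past the threshold and lower without mutant replicate 2.

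In the amino acid stress list, 7 of 10 genes were higher and none lower, against 13.9% and 10.4% of all genes, with a median log2 fold change of 2.53, and 1 of the 7, *Slc7a11*, entered the test only through the mutant-labelled group. *Chac1*, which degrades glutathione, had 28.9, 11.3 and 22.8 in control-labelled libraries and 3667, 2679 and 3540 in mutant-labelled ones (7.31, adjusted p = 4.28e-06). *Trib3*, a pseudokinase, rose by 7.15, *Asns*, asparagine synthetase, by 5.02 and *Sesn2*, a sensor of leucine, by 3.02. *Psat1*, of serine synthesis, was 11857 ± 1335 and 11721 ± 1819 (-0.02, adjusted p = 0.913).

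The adipocyte and granulocyte targets are linked to C/EBPα and C/EBPε. Of 12 adipocyte targets, none was higher and 1 lower past the threshold, against 13.9% and 10.4% of all genes, and the list median was -0.06 on the log2 scale. *Scd1*, a fatty acid desaturase, fell by 1.53 (5761 ± 123 to 2004 ± 163, adjusted p = 1.83e-05), while *Pparg*, the partner of C/EBPα in adipocytes, had values of 222, 50.1 and 72.2 and of 107, 533 and 114 (adjusted p = 0.32). *Lpl*, *Lep* and *Cfd* overlapped as well. All 6 adipocyte markers are among these 12 targets. Without mutant replicate 2 the lower count was 2, with *Cfd*. Of 11 granulocyte targets tested, 1 was higher and 2 lower, shares near those of all genes, with a median of 0.84. *Csf3r*, the G-CSF receptor, went from 13.3 ± 7.40 to 128 ± 37.6 (3.28, adjusted p = 0.00253), *Mmp8* fell by 3.87 and *Lyz2* by 1.30, a call that was lost without mutant replicate 3 (-0.97). *S100a8* and *S100a9* overlapped between the groups, and the higher count was 2, with *S100a8*, without control replicate 3 or mutant replicate 3. Neutrophil markers were low throughout, with *Ly6g* at 0 in 4 of the 6 libraries and a summed value of 52.9 to 207 in control-labelled and 77.1 to 633 in mutant-labelled libraries, and 5 of the 7 neutrophil markers are also granulocyte targets. The part of these cells in the granulocyte counts was not tested.

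Of 12 genes that act on C/EBP protein or mRNA, 2 were higher and 1 lower, shares near those of all genes (13.9% and 10.4%), with a median log2 fold change of -0.12. *Trib1* and *Trib2*, which direct C/EBPα to degradation, moved in opposite directions, by 1.98 and -1.26 (adjusted p = 4.12e-05 each). *Rps6ka3*, a kinase of C/EBPβ, rose by 1.07, a call that was lost without mutant replicate 3 (0.98). *Mapk3* (-0.80) and *Celf1* (0.68) stayed under 2-fold.

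For *Cebpz*, 15 nucleolar proteins of ribosome assembly were examined, of which 4 were higher and none lower past the threshold (13.9% and 10.4% of all genes). The list median was 0.67 on the log2 scale against 0.03 for all genes. Values of 14 did not overlap between the groups, against 49.2% of all genes. *Nop14*, of the small subunit processome, and *Nop58*, of box C/D particles, rose by 1.43 and 1.33, whereas *Ncl*, nucleolin, and *Npm1*, nucleophosmin, were higher by 0.78 and 0.76 (adjusted p = 0.000264 and 0.000275), under 2-fold like *Cebpz* itself. None of the 3 subunits of NF-Y, the factor that binds CCAAT boxes, passed the threshold, with log2 fold changes from 0.00 (*Nfya*) to 0.27 (*Nfyc*) by limma, though *Nfyc* had an unadjusted p under 0.05 (0.0316).

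**Figure D5:**
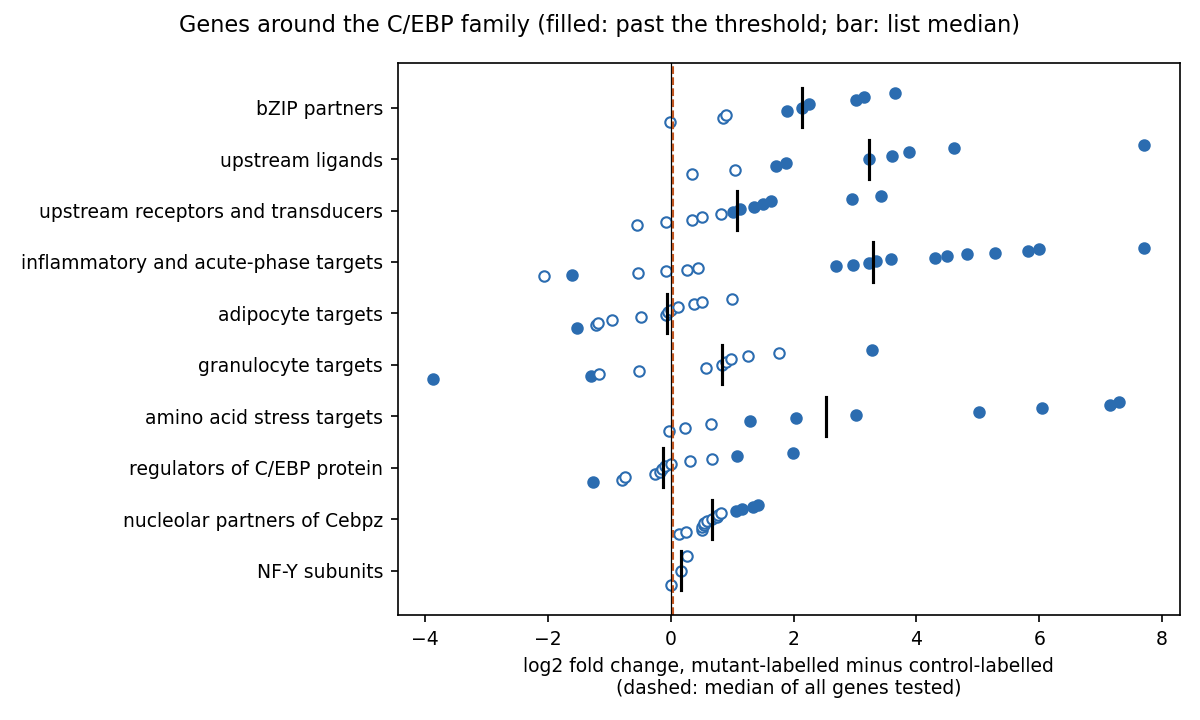
Log2 fold change (x axis, mutant-labelled minus control-labelled) of every tested gene of the 10 lists around the C/EBP family, filled where past the threshold, with a black bar at each list median and a dashed line at the median of all genes tested (0.03). Medians lie above 2 for bZIP partners, upstream ligands, inflammatory and amino acid stress targets, the last 3 of which include genes that entered the test only through the mutant-labelled group, and near 0 for adipocyte targets, regulators of C/EBP protein and NF-Y subunits.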

How the data were processed

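The authors counted poly-A RNA-seq reads (oriented cDNA, 130 + 130 bases) mapped with STAR 2.4.0 to mm10 on constitutive regions of FAST DB genes. They divided these counts by DESeq2 size factors, and the deposited signal per gene and library is that quotient. The expression filter of the methods needs intergenic reads and was not applied. Groups came from the labels. The members and the gene lists were chosen with earlier results of these data known.

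log2(value + 1) was fitted with limma 3.58.1 (lmFit, then eBayes with trend, R 4.3.3) as mutant-labelled minus control-labelled, over genes with a mean of at least 10 in at least 1 group. P-values were adjusted by Benjamini and Hochberg over the 25802 genes tested. The replicates are separate animals, with label codes that alternate between the groups. Whether any share a litter or batch is not stated. Named were the members, *Adar*, the largest rise, the largest fall and up to 3 more genes by p of each list, and the 3 genes with a symbol most like each risen member. Added after their values were seen were overlapping neighbours, *Cd14*, *Lcn2*, *Hp*, single cell type markers, and listed genes at 0, too low to test or tested only through the mutant-labelled group.

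Values in each library were whole multiples of 1 read (100% within 0.02 reads). The floor of 3 reads covers counting error only: amplified reads that carry no molecular identifier cannot be counted as separate molecules. The count tests of edgeR 4.0.16 and DESeq2 1.42.0 were run on the reads of 5 libraries, without mutant replicate 3, as alternatives chosen after seeing the data. The fits were tested on simulated data. Python 3.11.15 drew the figures. Same-numbered libraries had deviations with correlations of -0.06, -0.06 and 0.009, which gave no sign of pairing but cannot show that no litter or batch was shared. Amino acid sequences were not used here. Some SC markers are not reported here.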

Additional observations from a re-analysis of the deposited data

How the results depend on the processing

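The 3 members past the threshold stayed past it, and higher, under the 12 other settings, and when any 1 of the 6 libraries was removed. The count of members was 3 to 4 with a library left out, and 4 without mutant replicate 1, where *Cebpe* joined them. The log2 fold change of *Cebpa* ran from 0.75 (same 75th percentile) to 0.99 (DESeq2 on 5 libraries), that of *Cebpz* from 0.46 to 0.70 and that of *Cebpe* from 0.90 to 3.84. With libraries left out, *Cebpe* ran from 1.64 to 3.48. The number of genes past the threshold lay between 4706 (mean of at least 50) and 6892 (no filter), and at 5743 to 6334 with a library left out. As it is not stated whether the numbers mark a shared litter or batch, a replicate block was tried only as a check. It gave 6149 genes, against 6251, and 3 members, and it changed the side of the threshold of no member and no list count.

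The higher granulocyte targets numbered 2 with the same total, with edgeR, DESeq2 or TMM on 5 libraries and 1 to 2 with a library left out, and the lower ones 1 with those 3 tools and 1 to 3 with a library left out. The higher regulators numbered 1 with those 3 tools and 1 to 2 with a library left out. Over all settings and libraries left out, the higher counts ran from 5 to 7 for the ligands, 10 to 12 for the inflammatory targets, 5 to 8 for the bZIP partners and 6 to 7 for the receptors. Lower inflammatory and lower adipocyte targets both numbered 1 to 2 with a library left out, 2 without mutant replicate 2. With a pseudocount of 0.1, 3 differences reversed, so that *Cebpe* changed more than the other gene: *Cebpb* minus *Cebpe* (-0.53), *Cebpd* minus *Cebpe* (-0.23) and *Cebpe* minus *Cebpg* (0.75). With a library left out, *Cebpb* minus *Cebpe* ran from -0.86 to 1.93, *Cebpd* minus *Cebpe* from -0.54 to 2.19, *Cebpe* minus *Cebpg* from -1.65 to 1.08, *Cebpb* minus *Cebpg* from -0.0055 to 0.52, *Cebpd* minus *Cebpg* from 0.20 to 0.75 and *Cebpa* minus *Cebpz* from -0.033 to 0.51. The cause was not tested.

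Of 827 values of single named genes under alternatives, 787 kept their direction and side of the threshold. The sign changed for 6 genes, all with p over 0.05 in the comparison: *Atf2* (0.15 with the same total), *Cfd* (1.99 with edgeR, 2.01 with DESeq2, 0.88 with TMM), *Lep* (1.17, 1.19 and 0.020), *Nfya* (-0.067 with the same 75th percentile), *Orm1* (1.05 with edgeR, 1.07 with DESeq2) and *Psat1* (0.14 with the same total). With a library left out, *Atf2* ran from -0.11 to 0.049, *Cfd* from -3.65 to 0.88, *Lep* from -3.74 to 0.23, *Nfya* from -0.080 to 0.12 and *Psat1* from -0.11 to 0.11. edgeR, DESeq2 and TMM on all 6 libraries were not run, since mutant replicate 3, although its values were whole multiples of 1 read, has a size of 1 read so near 1 (0.989) that the check of recovered reads did not accept it. A mean of at least 50 left *Cebpe* untested. *Cebpe*, *Il6* in the control-labelled libraries and the neutrophil markers rest on few reads.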
